A study of Mus musculus with 72 samples.

Results

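The genes described here are 34 genes of hepatic stellate cells and of the extracellular matrix, the protein scaffold around liver cells. They were taken by symbol: collagen chains, matrix glycoproteins, cross-linking enzymes, tissue inhibitors of metalloproteinases (TIMPs), contractile and cytoskeletal proteins, growth factor receptors with a ligand, and Lrat and Reln as genes of vitamin A storing stellate cells. Each symbol matched 1 Ensembl identifier of the deposited table, and all 34 held enough counts to be tested, among 14954 genes tested of 50307 genes used. Liver RNA was sequenced from DBA/2J (DBA) and C57BL/6J (B6) mice, both inbred strains, of which the strain field spells the second C56BL/6J. Males and females of each strain ate a Western diet low in isoleucine, with its control content, or high in isoleucine, for 12 weeks and were fasted for 16 h, which gave 12 groups of 6 libraries. The 4 strain and sex classes are DBA males, DBA females, B6 males and B6 females. The design text puts the start of the diets at an age of 6 weeks, whereas the treatment text gives 18 weeks. The age field also gives 18 weeks, which may be the age at the start or at the end of the diets. No genetic change or drug is named for any group, every group ate a Western diet, and no other diet was measured. The labels do not say whether libraries of a group are separate animals, so p-values measure the spread between libraries, which may be technical in part. For the library preparation, polyA selection is named in 1 label field and a total RNA guide in another, both stranded.

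Hepatic stellate cells lie between the sinusoidal endothelium and the hepatocytes and store vitamin A as retinyl esters. After injury they can turn into myofibroblasts, which lose their vitamin A, gain contractile proteins and lay down fibrillar collagen, and they are known as a main source of scar matrix in fatty liver disease. Platelet-derived growth factor (PDGF) and transforming growth factor beta (TGF-beta) are their best known activating signals, and matrix is cleared by metalloproteinases that TIMPs restrain.

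Promoters are shown for 6 members: Col1a2, Col3a1, Timp3 and Pdgfra, because their levels differed with the diet, and Col4a1 with Col4a2, because these genes start beside each other and share promoter bases. The sequences are those of RefSeq on GRCm38.p6, each 5′ to 3′ on the strand of its gene, with 250 bases before and 50 after the start site. A promoter in that table matched 24 of the 34 members. In the first 4, capitals mark matches on either strand to the CCAAT box, to TATAAA as in a TATA box, to GGGCGG as in a GC box, to TGACTCA as bound by AP-1, or to the CArG box. Col1a2 lies at chr6:4505368-4505667, Col3a1 at chr1:45311288-45311587, Timp3 at chr10:86300162-86300461 and Pdgfra at chr5:75152001-75152300, all on the plus strand.
Col1a2: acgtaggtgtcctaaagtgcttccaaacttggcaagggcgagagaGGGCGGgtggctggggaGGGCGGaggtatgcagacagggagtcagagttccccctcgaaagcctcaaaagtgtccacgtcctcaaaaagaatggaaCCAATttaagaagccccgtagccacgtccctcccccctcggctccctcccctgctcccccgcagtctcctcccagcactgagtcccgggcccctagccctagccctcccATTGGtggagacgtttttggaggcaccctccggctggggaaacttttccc
Col3a1: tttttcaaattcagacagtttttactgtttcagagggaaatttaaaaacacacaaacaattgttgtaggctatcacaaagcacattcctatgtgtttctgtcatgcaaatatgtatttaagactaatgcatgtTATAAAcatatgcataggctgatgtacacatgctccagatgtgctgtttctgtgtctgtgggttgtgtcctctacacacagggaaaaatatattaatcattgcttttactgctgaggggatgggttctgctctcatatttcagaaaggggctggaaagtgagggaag
Timp3: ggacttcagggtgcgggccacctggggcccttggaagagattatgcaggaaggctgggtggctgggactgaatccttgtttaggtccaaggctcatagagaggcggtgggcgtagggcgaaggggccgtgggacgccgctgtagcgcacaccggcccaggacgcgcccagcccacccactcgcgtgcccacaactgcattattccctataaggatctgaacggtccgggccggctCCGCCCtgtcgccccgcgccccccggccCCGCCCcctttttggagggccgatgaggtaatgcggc
Pdgfra: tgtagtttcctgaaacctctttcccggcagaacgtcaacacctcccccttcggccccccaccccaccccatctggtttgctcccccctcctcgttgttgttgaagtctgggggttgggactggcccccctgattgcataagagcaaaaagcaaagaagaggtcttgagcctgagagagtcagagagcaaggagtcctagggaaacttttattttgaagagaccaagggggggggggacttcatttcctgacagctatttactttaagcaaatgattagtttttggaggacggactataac

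Counted from the start site, the Col1a2 window held GGGCGG at -205 to -200 and at -188 to -183, CCAAT at -109 to -105, and CCAAT on the minus strand at 1 to 5. The Col3a1 window held TATAAA at -117 to -112, and the Timp3 window held GGGCGG on the minus strand at -15 to -10 and at 14 to 19. The Pdgfra window held none of these letters, and no matches overlapped. Of 26 member promoters (some of the 24 members have more than 1), 8 held CCAAT, 3 TATAAA, 16 GGGCGG, 1 TGACTCA and 0 the CArG box. Over 32851 promoters of the same length the shares were 37.4% for CCAAT, 13.6% for TATAAA, 35.7% for GGGCGG, 5.2% for TGACTCA and 1.63% for the CArG box. A match is a stretch of letters and not evidence of binding.

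In the next pair, capitals mark the 78 bases that both windows share, from 11312777 to 11312854 on chromosome 8. Col4a1 runs on the minus strand and its window is chr8:11312777-11313076; Col4a2 runs on the plus strand and its window is chr8:11312555-11312854. The start sites, 11312826 for Col4a1 and 11312805 for Col4a2, place the first 22 bases of the genes over each other. Whether the counting used strand is not given in the sources used here, so reads of these bases may have been split between both genes and their values are uncertain to that extent.
Col4a1: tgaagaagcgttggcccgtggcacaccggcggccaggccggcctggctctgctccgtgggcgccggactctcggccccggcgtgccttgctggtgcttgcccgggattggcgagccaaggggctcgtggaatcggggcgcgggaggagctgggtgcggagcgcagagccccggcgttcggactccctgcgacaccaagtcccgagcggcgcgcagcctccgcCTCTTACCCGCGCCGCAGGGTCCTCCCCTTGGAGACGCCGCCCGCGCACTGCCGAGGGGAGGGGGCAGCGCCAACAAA
Col4a2: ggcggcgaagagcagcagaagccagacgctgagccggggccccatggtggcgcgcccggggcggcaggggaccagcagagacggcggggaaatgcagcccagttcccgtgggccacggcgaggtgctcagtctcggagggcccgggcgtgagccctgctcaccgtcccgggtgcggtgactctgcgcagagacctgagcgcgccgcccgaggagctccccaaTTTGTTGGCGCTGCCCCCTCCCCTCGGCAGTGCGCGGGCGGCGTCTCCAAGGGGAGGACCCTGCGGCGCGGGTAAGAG

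Library totals ran between 12959000.0 and 51125400.0 counts, and levels are counts scaled to a library total of 1e+06 (CPM). The 34 genes together took 0.180 to 0.391% of a library's counts. All 10 defining stellate cell markers examined (Lrat, Reln, Ngfr, Hand2, Lhx2, Des, Pdgfrb, Pdgfra, Colec11 and Cygb) were detected, with a summed level between 78.1 and 204 CPM over the 72 libraries and a median of 149 CPM. Every other marker list named below was detected as well, and the numbers of its genes at 0 are given where above 0. In bulk liver, fewer cells of a type and less RNA per cell cannot be told apart. Ddx3y, a Y-linked gene, was at 0 in the female libraries except B6 female control library 4, with 0.568 CPM; results are given without that library where it ends a call.

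Levels were compared between members per kilobase of exon. Fn1, which encodes fibronectin and is also made by hepatocytes, had a median over libraries of 113 CPM per kb, and Col18a1, the chain that carries endostatin, had 112 CPM per kb. The proteoglycan genes Dcn (decorin) and Bgn (biglycan) followed with 31.7 and 20.3 CPM per kb, and Sparc with 11.2 CPM per kb. The type I collagen genes stood low in this order, Col1a2 at 0.788 and Col1a1 at 0.432 CPM per kb, and Timp1 was lowest at 0.105 CPM per kb. The spread between libraries of the same group was widest for Acta2, with a within-group SD of 1.13 on the log2 CPM scale, followed by 0.72 for Tagln and 0.70 for Timp1, and narrowest for Fn1, with 0.22.

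Low isoleucine went with lower interstitial collagen and with higher Timp3 and Pdgfra as the mean of the 4 classes, while the contractile genes, Lrat and Reln gave no call. Over the mean of the 4 classes, 24 low libraries were set against 24 control libraries with edgeR's quasi-likelihood test, and a gene is called where its Benjamini-Hochberg adjusted p over all genes tested is under 0.05. By this measure 9 of 34 members were called, 2 higher and 7 lower. The 9 are 26.5% of the members, below the 37.8% of all 14954 genes called in this comparison, so the list as a whole did not stand out by its count. The 7 lower calls stand beside 20% of all genes called lower, and the 2 higher calls beside 17.8% called higher. The median log2 fold change of the members was -0.06, with 11 above 0 and 23 below 0, beside -0.0035 over all genes tested. All 7 genes that fell were collagen chains: 4 of the 6 chains that form fibrils or bind to them, 2 of the 3 chains of collagen VI, and 1 of the 4 chains of basement membrane and multiplexin collagens. No call fell on the 7 glycoproteins and proteoglycans, the 2 cross-linking enzymes, the 4 contractile and cytoskeletal genes, Lrat or Reln.

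**Figure D1:**
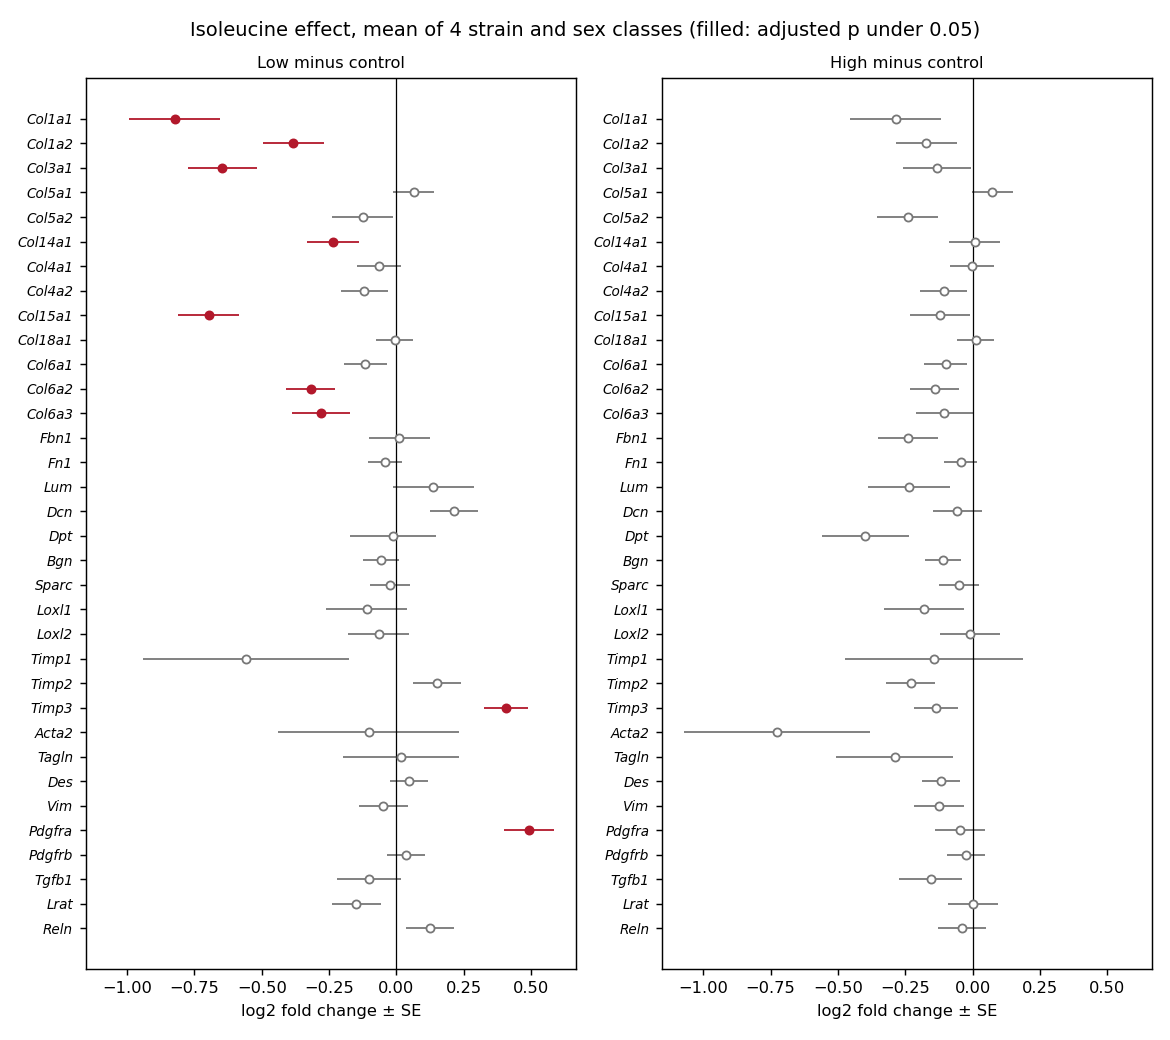
Log2 fold change with SE of the 34 members (rows) for low minus control on the left and high minus control on the right, as the mean of the 4 classes; filled points are called. On the left the 9 filled points run between -0.82 (Col1a1) and 0.49 (Pdgfra), and on the right no point is filled.

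Col1a1 and Col1a2 encode the chains of type I collagen, the main fibril of scar. Values of 6 libraries are given as lowest, median and highest. Col1a1 had 0.888, 1.15 and 2.22 CPM in DBA males on low isoleucine, against 0.863, 2.42 and 5.41 CPM on control. In B6 males it had 1.77, 3.54 and 5.47 CPM on low isoleucine, against 4.10, 7.20 and 14.01 CPM on control. The low libraries lay toward the bottom of the control range in both classes, with overlap. In B6 females it had 2.81, 5.03 and 6.95 CPM on low isoleucine, against 4.39, 9.10 and 14.5 CPM on control, again with overlap. DBA females showed 1.34, 1.87 and 2.47 CPM on low isoleucine, against 1.18, 1.87 and 2.55 CPM on control, and there the ranges lay over each other. The mean change was -0.82 ± 0.17 on the log2 scale (SE, adjusted p = 7.9e-05, edgeR), with 21 of 24 low libraries below the control mean of their own class. Col1a2 fell by 0.38 ± 0.11 as the mean of the classes (adjusted p = 0.0054, edgeR), with 20 of 24 libraries below. Its low median was below the control median in DBA males, B6 males and B6 females. DBA females went the other way, with 6.87, 7.93 and 10.3 CPM on low isoleucine, against 6.03, 6.68 and 10.2 CPM on control.

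Col3a1 encodes type III collagen, which forms fibrils with type I. It had 8.46, 12.7 and 16.5 CPM in DBA males on low isoleucine, against 10.9, 21.6 and 24.5 CPM on control. In B6 males it had 9.64, 14.9 and 16.9 CPM on low isoleucine, against 16.4, 32.4 and 45.5 CPM on control, and in these males only the top of the low range touched the control range. B6 females showed 11.7, 16.6 and 27.4 CPM on low isoleucine, against 22.4, 33.8 and 50.8 CPM on control. DBA females, with 9.66, 13.3 and 22.3 CPM on low isoleucine and 10.7, 13.6 and 21.0 CPM on control, had overlapping ranges and close medians. The mean change was -0.65 ± 0.13 (adjusted p = 4.8e-05, edgeR), with 22 of 24 libraries below. Col14a1, a collagen that binds to the surface of fibrils, fell by 0.24 ± 0.10 (adjusted p = 0.044, edgeR, 21 of 24 below). The type V collagen chains, which start fibrils, had no call, with 0.06 ± 0.08 for Col5a1 and -0.13 ± 0.11 for Col5a2.

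Among collagens of basement membranes, Col15a1 fell and the other 3 chains had no call. Col15a1 encodes the multiplexin type XV collagen, which links basement membranes to fibrils. It had 2.50, 2.83 and 3.26 CPM in DBA males on low isoleucine, against 3.27, 4.17 and 7.00011 CPM on control. In DBA females it had 1.26, 2.05 and 2.73 CPM on low isoleucine, against 3.52, 3.83 and 5.32 CPM on control. The ranges of the diets did not overlap in either DBA class. In B6 males it had 1.38, 2.76 and 2.99 CPM on low isoleucine, against 1.68, 2.98 and 4.76 CPM on control. In B6 females it had 2.14, 3.63 and 3.96 CPM on low isoleucine, against 3.64, 5.13 and 7.20 CPM on control. The B6 ranges overlapped, yet 24 of 24 low libraries over the 4 classes lay below the control mean of their class, and the mean change was -0.70 ± 0.11 (adjusted p = 1.2e-06, edgeR). Col18a1, the other multiplexin, stayed at 771 CPM on low isoleucine and 773 CPM on control on average, with a change of -0.01 ± 0.07. Col4a1 and Col4a2, the main type IV chains, had -0.06 ± 0.08 and -0.12 ± 0.09.

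Collagen VI forms beaded filaments beside basement membranes. Its chains Col6a2 and Col6a3 fell by 0.32 ± 0.09 (adjusted p = 0.0041, edgeR, 21 of 24 below) and by 0.28 ± 0.11 (adjusted p = 0.031, edgeR, 20 of 24 below). Col6a1, the chain that pairs with them, had -0.12 ± 0.08 with an adjusted p of 0.26. Of the calls over the 4 classes, those of Col14a1 and Col6a3 ended with no filter on low counts (adjusted p = 0.099 and 0.060, edgeR), with limma voom (0.071 and 0.077) and with libraries of a shared title number as a block (0.13 and 0.14). Without B6 female control library 4 they had adjusted p = 0.051 and 0.063 (edgeR), and without DBA female control libraries 5 and 6 that of Col6a3 was 0.11. Calls were also gained: in each of these 2 runs 3 members were called higher, against 2 with all libraries. Leaving out each library in turn gave 7 to 10 calls. The call of Col14a1 also ended without any 1 of 24 libraries, and that of Col6a3 without any 1 of 5 (B6 female control 4, B6 male control 1 and 4, DBA female control 6 and DBA male control 1). The other 7 called members kept their calls under every alternative run and without any 1 of the 72 libraries.

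Timp3, which encodes a matrix-bound inhibitor of metalloproteinases, rose. It had 11.7, 16.4 and 16.6 CPM in DBA males on low isoleucine, against 10.4, 12.9 and 18.5 CPM on control. In DBA females it had 19.3, 25.4 and 30.4 CPM on low isoleucine, against 12.9, 16.4 and 23.2 CPM on control. The low medians were above the control medians in both classes, with overlapping ranges. In B6 males it had 22.8, 26.2 and 30.4 CPM on low isoleucine, against 16.1, 20.4 and 35.1 CPM on control. In B6 females it had 31.4, 33.9 and 48.6 CPM on low isoleucine, against 14.9, 21.2 and 32.9 CPM on control, where 1 control library reached into the low range. The mean change was 0.41 ± 0.08 (adjusted p = 4.5e-05, edgeR), with 22 of 24 low libraries above the control mean of their class. Timp2 had 0.15 ± 0.09 without a call, and Timp1, a TIMP that activated stellate cells are known to induce, had -0.56 ± 0.38 at a level of 0.101 CPM on low isoleucine and 0.185 CPM on control.

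Pdgfra encodes a PDGF receptor of stellate cells and other fibroblasts. It had 7.98, 8.72 and 13.4 CPM in DBA males on low isoleucine, against 3.02, 5.39 and 6.503 CPM on control, without overlap. In DBA females it had 7.53, 9.80 and 12.7 CPM on low isoleucine, against 8.27, 8.72 and 11.6 CPM on control, with wide overlap. In B6 males it had 8.73, 10.4 and 11.6 CPM on low isoleucine, against 5.98, 7.41 and 10.1 CPM on control, and the ranges overlapped. In B6 females it had 10.6, 12.6 and 16.0 CPM on low isoleucine, against 5.46, 7.39 and 17.5 CPM on control, where control library 4 alone lay above the low libraries. The mean change was 0.49 ± 0.09 (adjusted p = 1.8e-05, edgeR), with 22 of 24 low libraries above. Pdgfrb, the beta receptor through which PDGF drives stellate cell growth, had 0.04 ± 0.07, and Tgfb1, the ligand of TGF-beta signalling, had -0.10 ± 0.12, neither called.

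**Figure D2:**
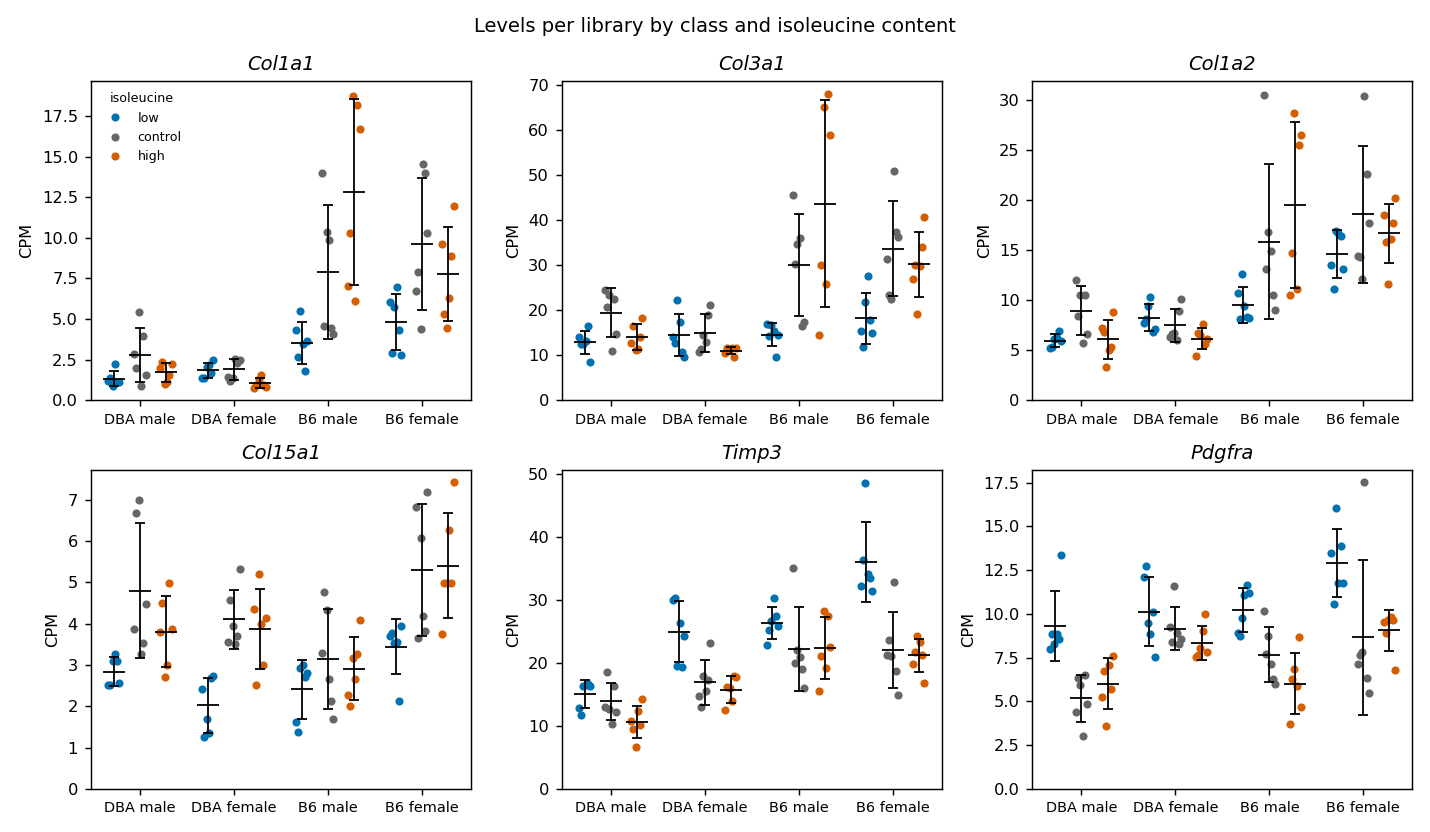
Level in CPM of 6 members (panels) in each library (points) by class and isoleucine content; the dash and bars are the mean and SD of 6 libraries, and the axes start at 0. Col15a1 on low isoleucine lies below its control range in both DBA classes, and Pdgfra on low isoleucine lies above it in DBA males.

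The remaining groups of members had no call on low isoleucine over the 4 classes. Dcn, whose product decorin coats collagen fibrils, came nearest with 0.21 ± 0.09 (adjusted p = 0.052, edgeR). The other glycoproteins and proteoglycans lay between -0.06 for Bgn and 0.14 for Lum (lumican), with -0.04 for Fn1, 0.01 for Fbn1 (fibrillin), -0.01 for Dpt (dermatopontin) and -0.02 for Sparc on the log2 scale. Loxl1 and Loxl2, enzymes that cross-link elastin and collagen, had -0.11 ± 0.15 and -0.07 ± 0.11. Acta2 (smooth muscle actin), Tagln (transgelin), Des (desmin) and Vim (vimentin) had -0.10 ± 0.34, 0.02 ± 0.22, 0.05 ± 0.07 and -0.05 ± 0.09. Lrat, the enzyme that makes retinyl esters, had -0.15 ± 0.09, and Reln (reelin), a marker of stellate cells, had 0.13 ± 0.09. A p that misses the threshold does not show that these levels were the same on both diets.

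Within single classes the calls on low isoleucine were fewer, and Col15a1 was called in 3 of 4 classes, of which DBA females alone kept the call with the title-number block. In DBA males 5 members were called, 3 higher and 2 lower, beside 17.7% of all genes, 7.48% higher and 10.2% lower. There Lum rose to 7.78 CPM on low isoleucine, against 3.86 CPM on control, a change of 0.995 ± 0.311 (adjusted p = 0.018, edgeR). Dcn and Pdgfra rose by 0.49 ± 0.18 and 0.84 ± 0.19, and Col1a1 and Col15a1 changed by -1.10 ± 0.36 and -0.77 ± 0.23. In DBA females 2 were called, beside 11.8% of all genes, 5.11% higher and 6.66% lower, with Timp3 at 0.56 ± 0.16 and Col15a1 at -1.01 ± 0.23. In B6 males 0 were called higher and 4 lower, beside 5% of all genes, 1.74% higher and 3.26% lower, with Col1a1 at -1.16 ± 0.32, Col3a1 at -1.04 ± 0.26, Col1a2 at -0.73 ± 0.22 and Col6a2 at -0.59 ± 0.18. In B6 females 6 were called, 2 higher and 4 lower, beside 20.8% of all genes, 9.53% higher and 11.3% lower, with Timp3 at 0.71 ± 0.16 and Pdgfra at 0.57 ± 0.18 higher. Col1a1, Col3a1 and Col15a1 were lower there, at -1.02 ± 0.32, -0.89 ± 0.25 and -0.62 ± 0.22. Timp1 was lower as well, at -2.32 ± 0.66, from 11 counts in all on low isoleucine and 68 on control over 6 libraries each, so its size rests on few counts. The member counts stood below the share of all genes called in each class except B6 males, where they stood above it.

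The class counts moved with the fit: in B6 males 0 members were called in a fit of that class alone or with the title-number block and 1 with no filter on low counts, in DBA males 3 with no filter or with limma voom and 1 with the block, and in DBA females 1 with the block. Col3a1 was called in B6 males without any 1 of the 72 libraries, but only 1 member was called there without B6 male low library 2 or 5 or control library 4, and 2 without control library 1 or 3 or low library 4 or 6. In DBA males 3 were called without control library 3 or low library 3 or 6, in DBA females 1 without low library 2, and in B6 females the calls of Col1a1 (without control library 5), Col15a1 (without control library 1, 3 or 6 or low library 3, 4 or 5) and Pdgfra (without low library 3 or control library 5 or 6) ended. The block ended the calls of Col15a1 and Timp1 in B6 females (adjusted p = 0.10 and 0.12) and of Col15a1 in DBA males (adjusted p = 0.059). DBA female control libraries 5 and 6 held the most Acta2 of all libraries, and without them 4 members were called in DBA females: Timp3, Dpt at 1.21 (adjusted p = 0.029) and Tagln at 1.39 (adjusted p = 0.030) higher, and Col15a1 lower (edgeR).

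**Figure D3:**
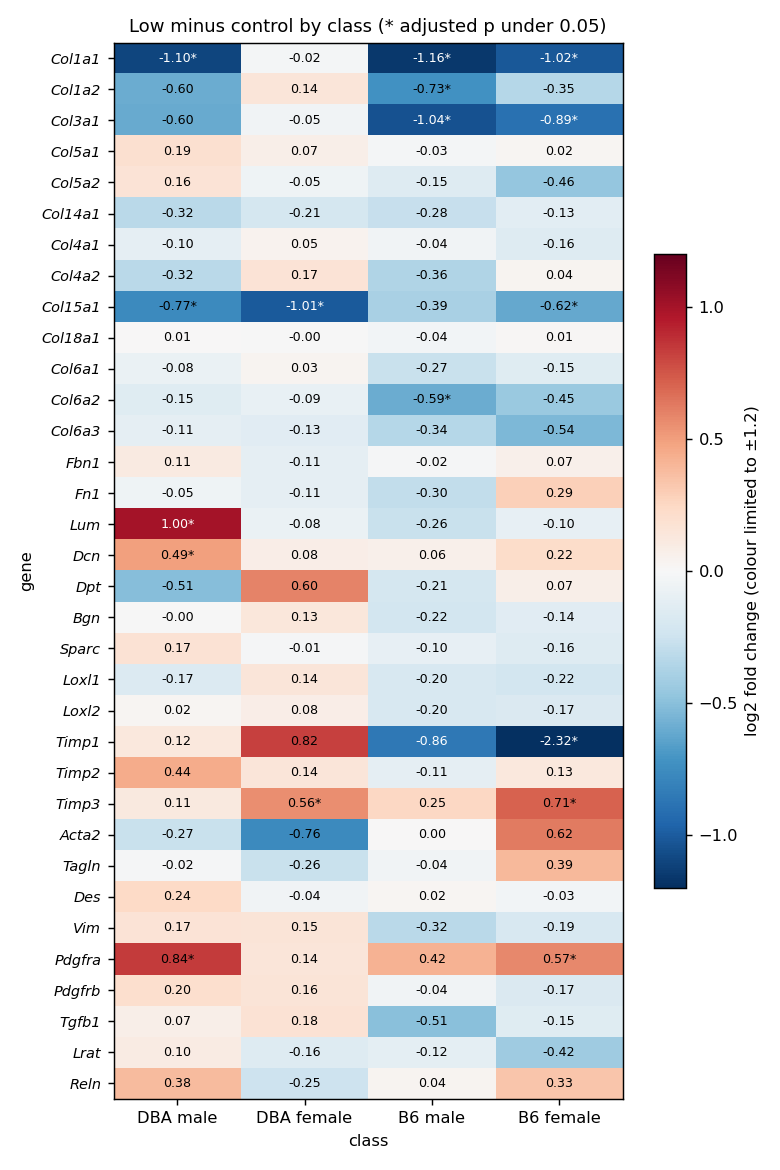
Log2 fold change of low minus control for the 34 members (rows) in each class (columns), with the value written in each cell, an asterisk where called and colour limited to ±1.2. Col15a1 is below 0 in every column, and its asterisk is missing only for B6 males.

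Whether the low isoleucine effect differed between strains or between sexes was tested as an interaction. No member was called for the strain difference or for the sex difference (edgeR), beside 1.39% and 6.68% of all genes, and none with DESeq2, limma voom or the title-number block. At an unadjusted p under 0.05 there were 6 members for the strain difference and 5 for the sex difference, beside 14.6% and 21.3% of all genes. A member called in 1 class and not in another is therefore not shown to respond differently there. Timp3 had the lowest adjusted p of the members, with a male minus female difference of -0.45 ± 0.16 in its low effect (adjusted p = 0.074, edgeR). Without B6 female control library 4, Timp3 (adjusted p = 0.025) and Col1a2 (adjusted p = 0.0495) were called for the sex difference, and without DBA female control libraries 5 and 6 Dpt was (adjusted p = 0.041, edgeR). Without DBA female control library 6 alone Timp3 and Dpt were called, and without DBA male low library 4 Col4a2 was.

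Other genes of the same pathways were taken from lists that share no gene with the members. On low isoleucine 38 of them were called over the 4 classes, 21 higher and 17 lower. Of all genes 37.8% were called, 17.8% higher and 20% lower. The called share of the tested genes on these lists was below that of all genes, in each direction. By list, the called share was above that of all genes for TGF-beta signalling, PDGF and other basement membrane genes, and below it for the rest. Of 19 collagen processing genes tested, 2 were higher and 4 lower. Serpinh1, the collagen chaperone HSP47, fell by 0.40 ± 0.10, Pcolce, which speeds the trimming of procollagen, fell by 0.38 ± 0.08, and Plod3, a collagen lysyl hydroxylase, fell by 0.24 ± 0.06 on the log2 scale. P3h1, a collagen prolyl hydroxylase, was higher by 0.22 ± 0.05. Of 16 matrix proteases and regulators tested, 3 were higher and 2 lower, with the metalloproteinase genes Mmp11 at 0.63 ± 0.13 and Mmp14 at 0.36 ± 0.07 higher and Mmp15 at -0.94 ± 0.08 and Mmp19 at -0.45 ± 0.06 lower. Interstitial matrix genes outside the members had 1 higher and 4 lower of 25, among them the collagen genes Col27a1 at -0.61 ± 0.15 and Col5a3 at -0.43 ± 0.12, and Ogn (osteoglycin), which was higher at 0.42 ± 0.12. Other basement membrane genes had 4 higher and 3 lower of 17, with the laminin chains Lama5 at 0.47 ± 0.10 and Lama3 at -0.46 ± 0.13 on opposite sides.

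Genes on the signalling lists were called in both directions. Of 24 TGF-beta signalling genes, 8 were higher and 2 lower. Skil and Ski, whose products restrain SMAD proteins, were higher by 0.84 ± 0.11 and 0.29 ± 0.06, the co-receptor gene Tgfbr3 was higher by 0.47 ± 0.09, and Smad3, a SMAD that carries the TGF-beta signal, fell by 0.36 ± 0.07. Of 4 PDGF genes, the ligand gene Pdgfc was higher by 0.40 ± 0.11 and the ligand gene Pdgfa fell by 0.44 ± 0.10. Of 17 other stellate cell genes, 2 were higher (Hhip at 0.61 ± 0.12 and Rspo3 at 0.26 ± 0.07) and 1 lower (Cxcl12 at -0.17 ± 0.07), and of 13 smooth muscle genes none was called, beside 37.8% of all genes.

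Markers of other liver cells moved with the same comparison, in which 17.8% of all genes were called higher and 20% lower. Sinusoidal endothelium had 8 of 13 markers higher, with a summed level of 294 to 489 CPM on low isoleucine and 222 to 454 CPM on control. Kupffer cells, the resident macrophages, had 8 of 10 lower, with 94.5 to 412 CPM on low isoleucine and 139 to 949 CPM on control. Infiltrating and lipid-associated macrophages had 7 of 12 lower, with 21.9 to 55.8 CPM on low isoleucine and 15.7 to 102 CPM on control. In DBA males alone their sum was higher on low isoleucine, at 31.1 to 44.6 CPM, against 15.7 to 25.9 CPM on control. Hepatocyte markers had 6 of 10 higher, portal fibroblast and mesothelium markers 1 of 10 lower, cholangiocyte markers 1 higher and 2 lower of 7, lymphocyte markers 1 of 10 lower and adipose markers 1 of 2 lower. The defining stellate cell markers summed to 122 to 203 CPM on low isoleucine (median 147 CPM) and 92.0 to 191 CPM on control (median 153 CPM). The part of these shifts in the member results was not tested.

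High isoleucine gave no call among the members, over the mean of the 4 classes or in any class. Over 24 high and 24 control libraries, 0 members passed edgeR's test, beside 0% of all genes, and 5 members had an unadjusted p under 0.05, beside 4.57% of all genes. DESeq2, limma voom and the title-number block also called 0 members. The median log2 fold change of the members was -0.12, with 4 above 0 and 30 below 0, beside 0.0027 over all genes. The 5 members were Timp2 at -0.23 ± 0.09, Dpt at -0.40 ± 0.16, Fbn1 at -0.24 ± 0.11, Col5a2 at -0.24 ± 0.11 and Acta2 at -0.73 ± 0.34, each with an adjusted p of 1.0 (edgeR). Within classes, edgeR's test called 0 members in DBA males (7 at an unadjusted p under 0.05), DBA females (4), B6 males (9) and B6 females (0), beside 0.0134%, 0.00669%, 4.51% and 0% of all genes called and 8.43%, 2.39%, 21.6% and 5.66% of all genes at that unadjusted p, and DESeq2, limma voom and the block called 0 in each.

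On high isoleucine the members' point estimates were below 0 for 32 of 34 in DBA males, 33 of 34 in DBA females and 23 of 34 in B6 females. In B6 males 26 of 34 were above 0. The members' medians were -0.27, -0.19, -0.15 and 0.21 in that order, beside 0.0043, 0.0029, -0.0099 and 0.026 over all genes. Members of a class share the same 6 control libraries, so their signs are not independent. In B6 males, Col1a1 had 6.09, 13.5 and 18.7 CPM on high isoleucine, against 4.10, 7.20 and 14.01 CPM on control, a change of 0.71 ± 0.31 (adjusted p = 0.17, edgeR). The 6 high libraries of these males spread widely: Col3a1 had 14.5, 29.9, 65.0, 25.8, 67.8 and 58.7 CPM in libraries 1 to 6, against 16.4, 32.4 and 45.5 CPM (lowest, median and highest) on control. Timp1 had 0.138, 0.722 and 1.19 CPM on high isoleucine, against 0.0418, 0.205 and 0.395 CPM on control (1.57 ± 0.56, adjusted p = 0.081, edgeR). Without B6 male control library 1 or B6 male high library 1, Sparc was called higher in B6 males (adjusted p = 0.0435 and 0.03, edgeR). The summed level of adipose tissue markers in B6 males was 15.8 to 199 CPM with a median of 103 CPM on high isoleucine, against 5.18 to 17.4 CPM on control, with 1 of 6 markers at 0 in each group. Infiltrating macrophage markers had 3 of 12 higher there (23.8 to 70.4 CPM on high isoleucine, 25.2 to 74.8 CPM on control), hepatocyte markers 3 of 10 lower (65419 to 95896 CPM on high isoleucine, 87625 to 122030.0 CPM on control) and portal fibroblast and mesothelium markers 1 of 10 higher (8.88 to 19.3 CPM on high isoleucine, 9.07 to 16.4 CPM on control). The part of these markers in the member values was not tested. The strain difference of the high effect (DBA minus B6) had 0 called members (5 at an unadjusted p under 0.05, beside 12.6% of all genes), with -0.97 ± 0.34 for Col1a1 (adjusted p = 0.18), beside 0.461% of all genes called. The sex difference of the high effect had 0 called members (1 at an unadjusted p under 0.05, beside 6.71% of all genes and 0% called), and DESeq2, limma voom and the block called none for either difference.

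High and low isoleucine were also set against each other. Over 24 high and 24 low libraries 10 members were called, 4 higher and 6 lower on high isoleucine, beside 43.6% of all genes, 22.9% higher and 20.7% lower. Col1a1, Col3a1, Col14a1 and Col15a1 were higher, at 0.54 ± 0.17, 0.51 ± 0.13, 0.24 ± 0.10 and 0.57 ± 0.11. Timp3 and Timp2 were lower at -0.54 ± 0.08 and -0.38 ± 0.09, Pdgfra at -0.54 ± 0.09, with 24 of 24 high libraries below the low mean of their class, and Lum, Dcn and Dpt at -0.37 ± 0.15, -0.27 ± 0.09 and -0.39 ± 0.16. With the title-number block 6 were called, 2 higher and 4 lower. This comparison shares its low libraries with that of low against control.

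On the control diet most members were lower in DBA than in B6 livers. Over the mean of the sexes, 12 DBA against 12 B6 libraries, 24 of 34 members were called, 1 higher and 23 lower, which is 70.6% of the members beside 45.4% of all genes, with 22.5% of all genes called lower and 22.9% higher. The median log2 fold change of the members was -0.49, beside 0.011 over all genes. The calls took in 5 of 6 fibril collagens, 2 of 4 basement membrane and multiplexin chains, 3 of 3 collagen VI chains, both cross-linking enzymes, 3 of 3 TIMPs, 2 of 3 receptors and ligand, and Lrat but not Reln, all lower in DBA. Glycoproteins and proteoglycans had 4 of 7 lower and Fn1 higher, and 1 of 4 contractile and cytoskeletal genes, Vim, was lower.

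Col1a1 showed the widest strain difference of the members, and in females its ranges did not overlap. DBA females on control had 1.18, 1.87 and 2.55 CPM, against 4.39, 9.10 and 14.5 CPM in B6 females. DBA males on control had 0.863, 2.42 and 5.41 CPM, against 4.10, 7.20 and 14.01 CPM in B6 males, with overlap. The change was -1.92 ± 0.24 (adjusted p = 3.3e-10, edgeR), with 12 of 12 DBA libraries below the B6 mean of their sex. Dpt, Loxl1, Col6a3, Lum and Col1a2 followed with -1.61 ± 0.23, -1.35 ± 0.21, -1.19 ± 0.15, -1.16 ± 0.22 and -1.07 ± 0.16, and for each of them 12 of 12 DBA libraries lay below. Timp1 had -1.91 ± 0.50, from 11 and 9 counts in all in DBA males and females, against 32 and 68 in B6 males and females.

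Lrat averaged 8.45 CPM in DBA and 13.996 CPM in B6 livers, a change of -0.73 ± 0.13 (adjusted p = 3.4e-06, edgeR), with 12 of 12 DBA libraries below. Pdgfrb and Tgfb1 were lower at -0.41 ± 0.10 and -0.51 ± 0.17, and the paired collagen IV genes Col4a1 and Col4a2 at -0.71 ± 0.11 and -0.72 ± 0.12. Fn1 was the only called member higher in DBA, at 0.24 ± 0.09 (adjusted p = 0.023, edgeR). The 10 members without a call were Col5a1, Col15a1, Col18a1, Fbn1, Sparc, Acta2, Tagln, Des, Pdgfra and Reln, with values between -0.24 for Pdgfra and 0.74 for Acta2. The Acta2 value includes DBA female control libraries 5 and 6, at 29.4 and 24.1 CPM. Its median was 1.72 CPM in DBA and 4.75 CPM in B6 females, and 1.88 CPM in DBA and 1.33 CPM in B6 males. Without these DBA female libraries 25 members were called, 1 higher and 24 lower in DBA. Of the defining stellate cell markers among the 10 members without a call, Des and Reln had -0.09 ± 0.10 and 0.14 ± 0.12, and Pdgfra had -0.24. All defining stellate cell markers summed to 92.0 to 191 CPM in DBA (median 149 CPM) and 123 to 182 CPM in B6 libraries (median 161 CPM).

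In males 18 members were lower and 1 higher in DBA, beside 40.5% of all genes called, 19.6% lower and 20.9% higher. In females 18 were lower and 2 higher, beside 32.3% called, 16.5% lower and 15.8% higher. Without B6 female control library 4, 16 were lower and 3 higher in females. On the low diet 14 members were lower and 0 higher in DBA, beside 44.5% of all genes called and 21.7% lower, and on the high diet 28 were lower and 1 higher, beside 50.4% called and 24.6% lower. On high isoleucine Col1a1 averaged 1.38 CPM in DBA and 10.3 CPM in B6 livers (-2.89 ± 0.25), and the 12 libraries of each strain did not overlap for Col1a1, Col1a2, Col6a2, Col6a3 and Dpt. How many of all genes tested also did not overlap was not counted, so this is not shown to be particular to these members. Differences between these counts were not tested beyond the interactions given above. In other lists on the control diet, 14 of 19 collagen processing genes, 17 of 25 other interstitial matrix genes and 12 of 24 TGF-beta signalling genes were lower in DBA, with 2, 3 and 1 higher. Kupffer cell markers had 8 of 10 lower (summed level 139 to 384 CPM in DBA, 224 to 949 CPM in B6), infiltrating macrophage markers 9 of 12 (15.7 to 40.8 CPM in DBA, 25.2 to 102 CPM in B6), lymphocyte markers 7 of 10 with 1 higher (7.36 to 18.8 CPM in DBA, 9.15 to 35.3 CPM in B6), and cholangiocyte markers 4 of 7 (18.6 to 45.2 CPM in DBA, 43.7 to 133 CPM in B6), and the part of these cells in the member results was not tested. The call of Col5a2 ended with the title-number block (adjusted p = 0.12) and without B6 female control library 4 (adjusted p = 0.12, edgeR) or B6 male control library 1, that of Fn1 without the same male library (adjusted p = 0.064, edgeR), and that of Timp2 without any 1 of 4 libraries, B6 female control 4, B6 male control 1, DBA female control 2 and DBA male control 1.

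**Figure D4:**
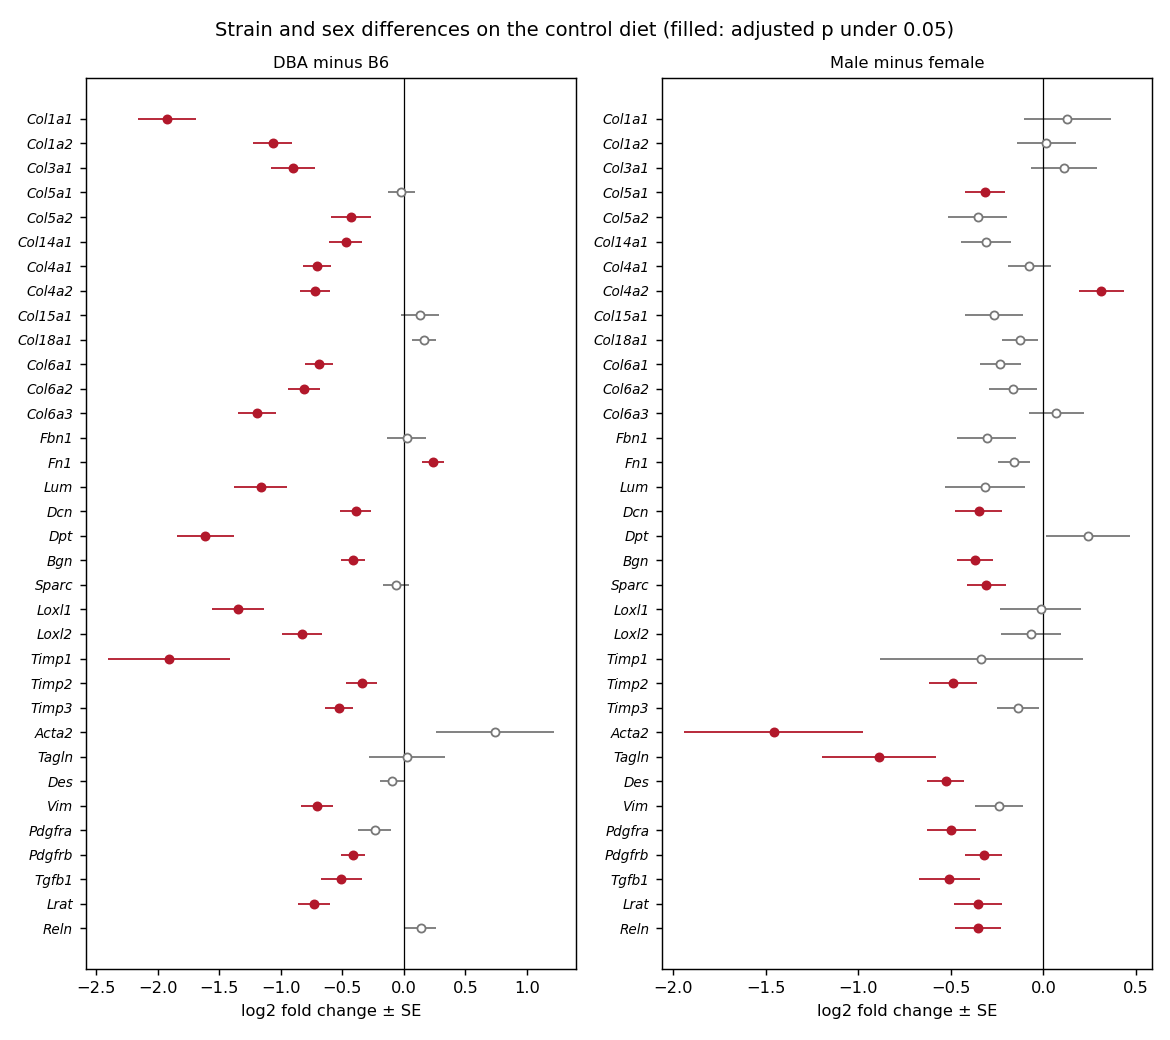
Log2 fold change with SE of the 34 members (rows) on the control diet for DBA minus B6 on the left and male minus female on the right; filled points are called. On the left 23 filled points lie below 0 and 1, Fn1, above it; on the right 13 lie below 0 and 1, Col4a2, above it.

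As the mean of both strains, the PDGF receptor genes, Tgfb1 and Des were lower in male than in female livers, while type I and III collagen genes gave no call. On the control diet 14 of 34 members were called over 12 male and 12 female libraries, 1 higher and 13 lower in males, which is 41.2% of the members beside 26.2% of all genes, with 12.9% of all genes called lower and 13.3% higher. The median log2 fold change of the members was -0.31, beside 0.0011 over all genes. Called lower in males were all 3 receptors and ligand, Lrat, Reln, 3 of 4 contractile and cytoskeletal genes (Acta2, Tagln and Des), 1 of 6 fibril collagens, 3 of 7 glycoproteins and proteoglycans and 1 of 3 TIMPs. The calls of Lrat, Reln, Acta2 and Tagln ended with the title-number block (adjusted p = 0.12, 0.072, 0.23 and 0.19), and without any 1 of 10 libraries for Lrat, 6 for Reln and 3 each for Acta2 and Tagln. Without DBA female control libraries 5 and 6, Acta2 and Tagln had -0.08 and -0.06, against -1.46 and -0.89 with all libraries. Des had 3.05, 4.31 and 5.62 CPM in DBA males and 4.71, 5.19 and 7.99 CPM in DBA females. In B6 it had 3.83, 4.16 and 5.15 CPM in males and 5.41, 6.64 and 7.61 CPM in females, without overlap. The difference was -0.53 ± 0.10 (adjusted p = 3.9e-05, edgeR), with 12 of 12 male libraries below the female mean of their strain.

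Pdgfra had 3.02, 5.39 and 6.503 CPM in DBA males and 8.27, 8.72 and 11.6 CPM in DBA females, without overlap. In B6 it had 5.98, 7.41 and 10.1 CPM in males and 5.46, 7.39 and 17.5 CPM in females, with overlap and close medians. The difference over both strains was -0.50 ± 0.13 (adjusted p = 0.0031, edgeR). Lrat and Reln had -0.35 ± 0.13 and -0.35 ± 0.13, Pdgfrb and Tgfb1 -0.32 ± 0.10 and -0.51 ± 0.17, Bgn and Timp2 -0.37 ± 0.10 and -0.49 ± 0.13, and Dcn, Sparc and Col5a1 -0.35 ± 0.13, -0.31 ± 0.11 and -0.32 ± 0.11. The type I and III collagen genes had no call, with 0.13 ± 0.23 for Col1a1, 0.02 ± 0.16 for Col1a2 and 0.11 ± 0.18 for Col3a1. Col4a2 was higher in males at 0.31 ± 0.12 (adjusted p = 0.049, edgeR), while its neighbour Col4a1 had -0.07 ± 0.11. In DBA mice Col4a2 had 12.5, 14.6 and 22.9 CPM in males and 9.29, 10.5 and 11.8 CPM in females, without overlap, and the call over both strains ended when any 1 of 36 libraries was left out.

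Within the strains, 7 members were called in DBA, 1 higher and 6 lower in males, beside 25.7% of all genes called and 11.3% lower, and 4 in B6, all lower in males, beside 17.4% called and 8.49% lower. The 4 in B6 were Col15a1 at -0.76 ± 0.22, Bgn at -0.46 ± 0.14, Sparc at -0.47 ± 0.15 and Des at -0.59 ± 0.14. Without B6 female control library 4, 3 members were called in B6, all lower in males. In DBA, Reln had 27.6, 46.5 and 51.4 CPM in males and 57.8, 69.2 and 82.5 CPM in females (-0.72 ± 0.18), and Dcn had 81.7, 129.8 and 156 CPM in males and 165, 185 and 201 CPM in females (-0.59 ± 0.18), neither with overlap. In B6, Reln had 40.5, 49.6 and 59.3 CPM in males and 39.2, 49.8 and 58.7 CPM in females. Dcn there had 149, 186 and 277 CPM in males and 176, 197 and 261 CPM in females, and both genes had overlapping ranges. On the low diet 12 members were lower and 0 higher in males, beside 33.3% of all genes called and 16.6% lower, and on the high diet 8 were lower and 3 higher, beside 28.9% called and 13.2% lower. The 3 higher in males on high isoleucine were Col1a1 at 0.71 ± 0.24, Col4a2 at 0.44 ± 0.12 and Timp1 at 1.43 ± 0.56. Of the markers of other cells on the control diet, sinusoidal endothelium had 11 of 13 lower in males (summed level 222 to 352 CPM in males, 301 to 454 CPM in females), Kupffer cells 10 of 10 (139 to 412 CPM in males, 205 to 949 CPM in females) and lymphocytes 8 of 10 with 1 higher (9.15 to 18.1 CPM in males, 7.36 to 35.3 CPM in females), and the part of these cells in the member results was not tested. The defining stellate cell markers, which include Lrat, Reln, Des, Pdgfra and Pdgfrb, summed to 92.0 to 175 CPM in males (median 129 CPM). In females they summed to 151 to 191 CPM (median 163 CPM). With the title-number block 7 members were called, all lower in males (Col5a1, Bgn, Timp2, Des, Pdgfra, Pdgfrb and Tgfb1), and without DBA male control library 4 there were 9. The calls of Bgn, Timp2, Des, Pdgfra and Pdgfrb held without any 1 of the 72 libraries, and that of Tgfb1 ended only without B6 female control library 6 (adjusted p = 0.052, edgeR). The call of Dcn ended without any 1 of 7 libraries and that of Sparc without any 1 of 3, among them B6 female control library 4. Without that library 12 members were called, 1 higher and 11 lower in males.

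Acta2 and Tagln, whose products are used as marks of myofibroblasts and are abundant in vascular smooth muscle, were high in a few single libraries. Acta2 was at 29.4 CPM in DBA female control library 5 and at 24.1 CPM in library 6, while the median of those 6 libraries was 1.72 CPM. Tagln was at 21.5 and 14.3 CPM in the same libraries, against a median of 2.70 CPM. Myh11, the smooth muscle myosin gene, reached 29.2 and 32.1 CPM there. DBA female low library 3 held 15.3 CPM of Acta2, 12.6 CPM of Tagln and 24.3 CPM of Myh11, DBA male control library 5 held 11.9 CPM of Acta2 and 10.4 CPM of Tagln, and B6 female control library 1 held 14.9 CPM of Acta2. On the control diet Acta2 and Tagln were lower in males at -1.46 ± 0.48 and -0.89 ± 0.31 (adjusted p = 0.019 and 0.025, edgeR). Without DBA female control libraries 5 and 6 they had -0.08 and -0.06 (adjusted p = 0.93 and 0.90, edgeR), and 9 members in all were called, each of them lower in males. Their calls also ended without B6 female control library 1, with limma voom and with the title-number block. The smooth muscle list had 6 of 13 genes lower in males with all libraries and 2 of 13 without these libraries. The amount of vessel in each sample was not measured, so its part in these values was not tested.

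**Figure D5:**
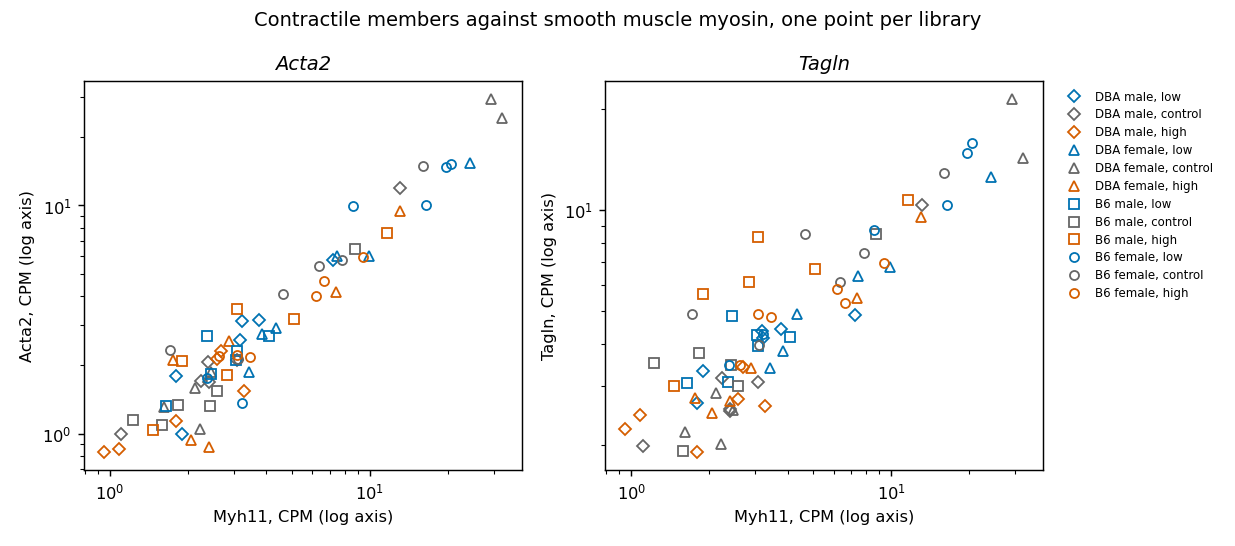
Level of Acta2 (left) and Tagln (right) against Myh11 in CPM, on log axes, with 1 point per library, marked by class and coloured by isoleucine content. The libraries with the most Acta2, DBA female control 5 and 6 at 29.4 and 24.1 CPM, are also at the top of the Myh11 axis, at 29.2 and 32.1 CPM.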

How the data were processed

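The authors deposited RNA-seq data in the form of expected counts per Ensembl gene for 72 mouse liver libraries; per the labels' protocols the genome was GRCm38.p5, and the aligner is not given in the sources used here. Upstream software, per the submitters' processing notes, was limma and edgeR under R 3.4.3. Of the nonzero deposited expected counts 9.56% were not whole, and all were rounded. The last line of the table is incomplete, with 3 values, and 1829 annotated genes after it were not analysed here. The authors' own comparison tables were not used, because the sources do not define their diet codes. Symbols came from the gene annotation, and 1 stellate cell marker is not reported here.

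Low-count genes were removed with filterByExpr over the 12 groups, libraries were scaled by TMM (factors 0.841 to 1.14), and all 12 groups entered 1 edgeR fit (edgeR 4.0.16 in R 4.3.3), with contrasts tested by quasi-likelihood and Benjamini-Hochberg adjustment at 0.05. CPM is the count scaled to a TMM-adjusted library total of 1e+06, and the SE is the log2 fold change divided by the root of F. Totals of 12959000.0 to 51125400.0 counts per library and a biological coefficient of variation of 0.210 set the precision. On simulated data over 14954 genes, 92% of changes of 0.5 and 99% of changes of 1 on the log2 scale were recovered for low against control over the 4 classes, and 52% and 88% in B6 females. The changes were placed in genes with a mean of at least 1 CPM, libraries were drawn independently, and all other genes were equal between groups. These rates therefore do not cover Timp1 or the likeness of libraries that share a title number. Alternatives used DESeq2 1.42.0 and limma 3.58.1. Members and lists were chosen with earlier results of these data known, and strain and sex contrasts within classes and diets were added after seeing the data. The text names all 34 members and, of each other list, up to 4 genes with the lowest adjusted p under 0.05 for low against control over the 4 classes.

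Title numbers (36 numbers of 2 libraries each) fall within groups and pair no groups. Libraries of a number differed less than other pairs of a group (chi-square per degree of freedom with a median of 35.0, against 74.3), yet none by so little as to be counted once (lowest 13.4).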

Additional observations from a re-analysis of the deposited data

Results flagged for a closer look

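Extremes within groups were looked for in 11 members over the 12 groups, which gives 132 sets of 6 libraries. In 18 of them the highest or lowest library was separated from the nearest other by a gap past Dixon's 95% critical value. For normally distributed values, chance alone gives about 1 in 20 such sets. The rule was applied to CPM without a log, for which that rate may not hold. It also misses high libraries that come as a pair, such as DBA female control libraries 5 and 6 for Acta2 and Tagln. For Acta2 and Tagln, 7 of the 18 were single high libraries: DBA male control library 5 (11.9 CPM of Acta2 and 10.4 CPM of Tagln), DBA female low library 3 (15.3 CPM of Acta2 and 12.6 CPM of Tagln), B6 male control library 1 (6.41 CPM of Acta2 and 8.48 CPM of Tagln) and B6 female control library 1 (14.9 CPM of Acta2). B6 male control library 1 also stood high for Col1a2, at 30.6 CPM, and for Timp3, at 35.1 CPM. Timp3 was high in B6 female low library 3, at 48.6 CPM. Pdgfra was high in DBA male low library 6 (13.4 CPM), DBA female control library 3 (11.6 CPM) and B6 female control library 4 (17.5 CPM), and low in B6 female high library 6 (6.77 CPM). Among collagens, Col1a1 was high in DBA male low library 4 (2.22 CPM), while Col14a1 was low in DBA male high library 3 (12.3 CPM), Col3a1 in B6 male low library 5 (9.64 CPM) and Col15a1 in B6 female low library 5 (2.14 CPM). Causes of these extremes were not tested.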

How the results depend on the processing

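The 34 members' results were recomputed with DESeq2, limma voom, other scaling, no filter on low counts, single classes alone, libraries of a shared title number as a block, and each library left out; settings without DBA female control libraries 5 and 6 or B6 female control library 4 were chosen after seeing the data. Of the counts of called members, 149 recomputed values stayed within 1.5 times the reported one and 19 did not. Many of the 149 are comparisons with 0 calls that stayed at 0, and a count can stay while its genes change. In the fit of B6 females alone 6 were called, 4 of them shared with the reported calls. Single members were tallied only for the 9 called on low isoleucine over the 4 classes, with the lowest and highest leave-one-out values. Of these values, 70 kept their side of the threshold, 11 did not, and 0 changed direction. With the title-number block, calls numbered 6 for high against low, for low against control 1 in DBA males, 1 in DBA females and 0 in B6 males, and 7 for males against females; this block joins libraries within a group and pairs no groups, and the members' correlation within numbers had a median of 0.258. With no filter the low counts were 1 in B6 males and 3 in DBA males, with limma voom 3 in DBA males, and in a fit of B6 males alone 0. Without DBA female control libraries 5 and 6 there were 4 calls for low in DBA females, 1 for the sex difference of the low effect and 9 for males against females; without B6 female control library 4 the sex difference had 2. Leaving out each library in turn gave 1 to 4 calls for low in B6 males, 1 to 3 in DBA females, 3 to 6 in DBA males, 0 to 1 for high in B6 males, 0 to 2 for the sex difference of the low effect, and 9 to 19 for males against females. The cause of these shifts was not tested. Depth limits Timp1 most, with 4 to 96 counts in all over the 6 libraries of a group.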

Other observations

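Genes of other liver cells moved on low isoleucine beside the matrix genes. Of all genes, 17.8% were called higher and 20% lower over the 4 classes. Over the 4 classes, 8 of 13 sinusoidal endothelial markers rose, with Bmp2, a signal for hepatic iron control, at 0.57 ± 0.08, Kdr, a VEGF receptor, at 0.52 ± 0.09 and the scavenger receptor gene Stab1 at 0.31 ± 0.07 on the log2 scale. Of the Kupffer cell markers 8 of 10 fell, with Cd68 at -0.62 ± 0.14 and Clec4f at -0.39 ± 0.09, as did the chemokine gene Ccl2 at -1.59 ± 0.27, and Trem2, which marks lipid-associated macrophages, at -0.72 ± 0.22. In B6 females 11 of 12 infiltrating macrophage markers fell, with a median log2 fold change of -1.19, beside 11.3% of all genes called lower. Their summed level there was 21.9 to 28.9 CPM on low isoleucine, against 33.0 to 102 CPM on control. In DBA males 1 of 12 rose and 0 fell, with a median of 0.079, beside 7.48% of all genes called higher and 10.2% lower. Yet the summed level in DBA males was 31.1 to 44.6 CPM on low isoleucine, against 15.7 to 25.9 CPM on control, without overlap. The difference of the low effect was called for 2 of these 12 markers between the strains and for 1 of 12 between the sexes (edgeR). Of all genes, 1.39% were called between the strains and 6.68% between the sexes.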
